A study of Homo sapiens with 8 samples.

Results

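Gene expression in bronchial epithelial cells exposed to FCP, a preparation labelled as derived from Der m 1, the group 1 allergen of the mite Dermatophagoides microceras, was set against that in cells exposed to fibrinogen itself (FBG). Both comparison groups received a protein preparation at the same dose, so the comparison leaves the buffer-treated cells out and asks how the 2 exposures differed, within a study aimed at adhesion-related changes. The members were the 2 FCP and the 2 FBG libraries, 4 of the 8 in the series, with every gene of the count tables. Of 50006 entries, 9382 belong to genes with a copy on an alternate locus and were set aside, which left 40624. Of these, 15321 passed a filter on low counts and were tested.

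All 8 libraries came from BEAS-2B, an immortalised human bronchial epithelial line labelled wild type and grown in serum-free LHC-9 medium, and exposure lasted 4 h. FBG was fibrinogen at 4 ng/µl. FCP was the material labelled M1-FCP and as derived from Der m 1, also at 4 ng/µl. The labels do not expand the abbreviation. How the material was made and whether active protease remained in it are not given in the sources used here, so its origin is known from the label alone. The other 4 libraries were Mock (PBS) and aC, the αC domain of fibrinogen at 4 ng/µl, and their levels are given beside those of FBG and FCP as the background. Each group has biological replicates 1 and 2 in the labels; nothing there says that they were separate cultures, and p-values therefore measure a spread between libraries that may be technical. BEAS-2B is 1 line, and no other line or primary cell was compared.

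Fibrinogen is the soluble plasma protein that thrombin turns into fibrin. It is built from alpha, beta and gamma chains, and cells bind it through integrins, the heterodimeric receptors that tie the cytoskeleton to the matrix. The group 1 allergens of house dust mites are cysteine proteases that can cut host proteins, and products of fibrinogen cleavage have been studied as ligands of Toll-like receptor 4 and of integrins on airway cells. BEAS-2B cells lie between epithelial and mesenchymal character, so the genes of both programs are informative in this line.

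Depth was 15137196 and 15144403 counts in the FBG libraries and 21715092 and 21680688 in the FCP libraries, and 15137196 to 22258791 over the series. A level of 3 counts over a group equals 0.101 CPM in FBG and 0.0655 CPM in FCP, where CPM is a count scaled to library size by TMM, the unit of every level below. These limits reflect counting error alone. The simple keratins KRT8 and KRT18, which mark epithelial cells and whose annotated spans overlap, so that their counts may not be fully separate, had means of 429 and 358 CPM in FBG and 743 and 541 in FCP, whereas SCGB1A1, the club cell secretory protein, had 0 counts in both groups. Before any single gene, the 4 groups fell into 2 sets on the first principal component. The first principal component, which held 83.6% of the variance, ran from -85.3 for a Mock library to 75.6 for an aC library: the FBG libraries had scores of -61.4 and -60.7, beside Mock, and the FCP libraries scores of 70.3 and 70.4, beside aC at 75.5 or more. The second component, with 8.26% of the variance, set Mock at 29.7 and 29.9 apart from FBG at -35.8 and -34.3. On it, FCP and aC lay together, from 1.8 to 3.57, so Mock and FBG were less alike than FCP and aC. Between FCP and FBG, exposure and membership of the 2 sets of the first component cannot be told apart. The labels do not say whether the libraries of both sets came from the same stock or culture of the line, so a difference of exposure and a difference of cells cannot be told apart either, and "rose" and "fell" below mean called higher or lower in the FCP than in the FBG libraries.

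The chromosomes did not share 1 level. The median log2 fold change of FCP over FBG was 0.52 on chromosome 9, where 81.1% of 698 tested genes were higher in FCP, 0.34 on chromosome 18, 0.31 on chromosome 6 and 0.20 on chromosome 20. On the short arm of chromosome 18 it was 0.74 over 67 genes, and on the long arm 0.14 over 167. The other autosomes and the X chromosome had medians between -0.17 and 0.03. With trends in GC content and length removed, the median on chromosome 9 was 0.44 above the median of all autosomal genes. Over all tested genes the median was -0.06 in that setting, so 0.44 and 0.52 are not on the same base. The split into these 4 chromosomes and the rest was chosen after their values were seen. The part of a shift of whole chromosomes in the genes named here was not tested, and the chromosome is given beside the values of genes on those 4.

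**Figure D1:**
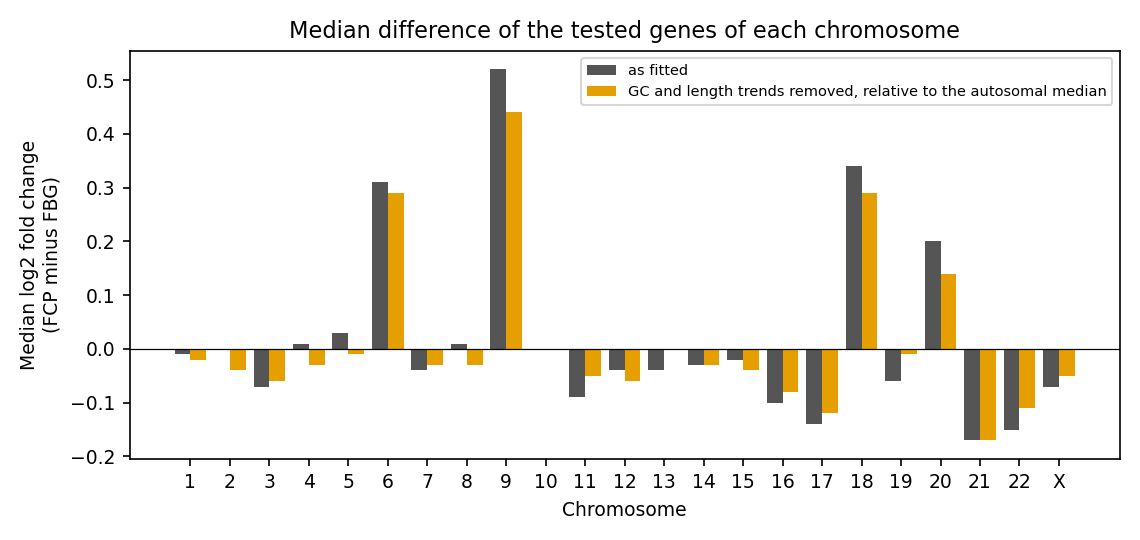
Median log2 fold change (FCP minus FBG, vertical axis) of the tested genes on each chromosome (horizontal axis), as fitted (dark bars) and with GC and length trends removed (orange bars). The orange bars are relative to the median of all autosomal genes, the dark bars are not. Chromosomes 9, 18, 6 and 20 stand at 0.52, 0.34, 0.31 and 0.20, above the others.

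Across the genome, 10597 of 15321 tested genes were called at an adjusted p under 0.05 (edgeR quasi-likelihood test, Benjamini-Hochberg over all genes), which is 69.2%. Of these, 5125 were higher in FCP (33.5%) and 5472 lower (35.7%). The background is thus wide, and any list of genes holds many calls. At 2-fold or more, 2083 genes were higher (13.6%) and 1117 lower (7.29%); at 8-fold or more, 484 and 172; at 32-fold or more, 167 and 44. The median log2 fold change was 0.007 and the median size of a change, in either direction, 0.46. On chromosomes 6, 9, 18 and 20, 53.9% of 2097 genes were called higher and 19.2% lower, against 30.2% and 38.3% of 13224 genes elsewhere. Long non-coding RNA genes counted 809 higher and 209 lower of 2188 tested, with a median of 0.54, and protein-coding genes 4104 and 5174 of 12474, with a median of -0.06. The share of counts in long non-coding RNA was 0.709% to 0.713% in FBG and 0.886% to 0.887% in the deeper FCP libraries, and the part of depth in it was not tested. With 2 libraries against 2, the exact permutation test of a single gene cannot go below p = 0.333, so every p below comes from the fit across all genes. After each ± stands the larger of the fitted standard error and the counting error.

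**Figure D2:**
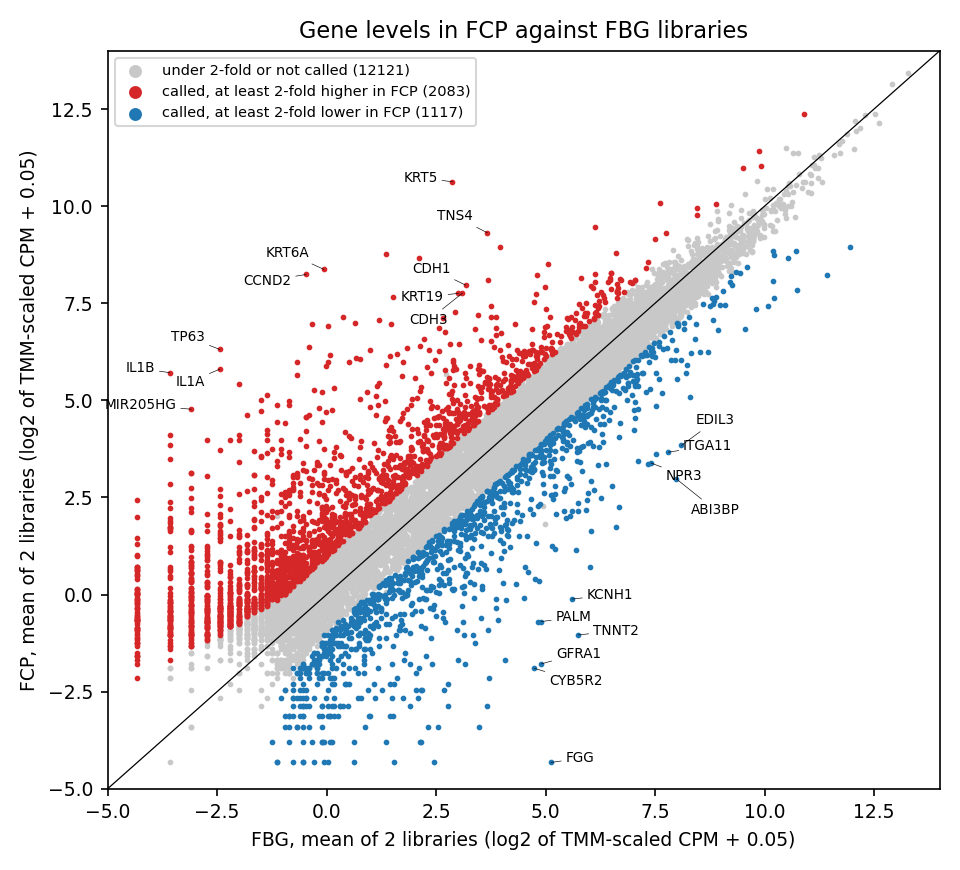
Mean level of each tested gene in the 2 FBG libraries (horizontal axis) against the 2 FCP libraries (vertical axis), both as log2 of TMM-scaled CPM + 0.05, with the line of equal levels. The 2083 genes called at least 2-fold higher in FCP are red, the 1117 at least 2-fold lower blue, and some genes with the largest fold changes are named.

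Among genes present in both groups, the 10 largest rises in FCP included keratin, cadherin and laminin genes, and the 10 largest falls the integrin subunit ITGA11 and the matrix proteins ABI3BP, EDIL3 and NID2. In bulk RNA, fewer cells of a type and less RNA per cell cannot be told apart. KRT5, the type II keratin of basal epithelial cells (chr12:52514575-52520394), stood at 6.94 and 7.61 CPM in FBG and 1572 and 1591 in FCP (log2 fold change 7.76 ± 0.098, adjusted p = 9.40e-27). TNS4, a tensin that binds integrin tails (chr17:40475834-40501623), stood at 13.7 and 11.7 CPM in FBG and 631 and 641 in FCP (log2 fold change 5.64 ± 0.075, adjusted p = 3.00e-30). In both genes the FCP libraries lay above the FBG libraries, as in 42.5% of all tested genes; with those below, 85% of genes had no overlap, so that separation of the libraries is common in this comparison. The 10 genes with the largest rises among those at 5 CPM or more in both groups also included CDH1, KRT19, CDH3, EPCAM, LAMA3, CDCP1 and L1CAM, with log2 fold changes from 4.31 to 4.79. EPCAM, an epithelial adhesion molecule, went from 6.6 and 5.86 CPM in FBG to 135 and 143 in FCP. L1CAM, an immunoglobulin-family adhesion molecule best known from neurons, went from 5.66 and 6.13 to 115 and 119. CDCP1 is a transmembrane protein cleaved by serine proteases.

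The largest falls were led by ABI3BP, which encodes a secreted matrix protein (chr3:100749156-100993421) and stood at 254 and 254 CPM in FBG and 7.43 and 8.21 in FCP (log2 fold change -5.02 ± 0.078, adjusted p = 3.68e-28). EDIL3, a secreted protein that binds αvβ3 integrin through an RGD motif (chr5:83940554-84384880), stood at 273 and 275 CPM in FBG and 15.2 and 13.3 in FCP (log2 fold change -4.27 ± 0.059, adjusted p = 1.32e-22). ITGA11, an integrin subunit for fibrillar collagen (chr15:68296532-68432163), stood at 220.0 and 227 CPM in FBG and 12.4 and 12.8 in FCP (log2 fold change -4.14 ± 0.063, adjusted p = 6.11e-27). For all 3 genes FBG was above FCP by more than any gap between libraries of a group. NPR3, FOXC2, P3H2, SDC2, SULF1, IGFBP2 and NID2 completed the set, with log2 fold changes from -4.03 to -3.52. Among them SDC2 is a heparan sulphate proteoglycan of the cell surface, SULF1 an enzyme that trims heparan sulphate, NID2 a basement membrane protein and P3H2 a collagen prolyl hydroxylase.

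Other genes went between near absence and clear expression. Higher in FCP, from under 1 CPM in FBG, were IL1B, TP63, CCND2, IL1A, MIR205HG, KRT6A, G0S2, FAT2, FGFBP1 and ESRP1. TP63, the master factor of basal epithelial identity (chr3:189596746-189897276), stood at 0.0674 and 0.202 CPM in FBG and 79.1 and 79.4 in FCP (log2 fold change 9.13 ± 0.72, adjusted p = 1.83e-24). CCND2, a D-type cyclin, stood at 0.539 and 0.808 CPM in FBG and 304 and 301 in FCP (log2 fold change 8.80 ± 0.32, adjusted p = 5.15e-29). MIR205HG, the host transcript of an epithelial microRNA, had 2 counts over both FBG libraries and 25.9 and 28.6 CPM in FCP, a ratio of counts, scaled by library size, of 405 (95% counting interval 112 to 3350). KRT6A shares sequence with KRT6B and KRT6C, so its count is uncertain. FAT2 is a giant protocadherin of epithelia, FGFBP1 a carrier of fibroblast growth factors, ESRP1 an epithelial splicing factor and G0S2 an inhibitor of lipolysis.

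Lower in FCP, to under 1 CPM, were FGG, TNNT2, GFRA1, CYB5R2, KCNH1, PALM, PLCE1-AS1 and SGIP1. FGG is treated below with fibrinogen. TNNT2, the cardiac troponin T gene, stood at 54.4 and 53 CPM in FBG and 0.262 and 0.611 in FCP (log2 fold change -6.92 ± 0.32, adjusted p = 7.77e-13). GFRA1, a receptor of the glial-derived neurotrophic factor family, stood at 28.6 and 31 CPM in FBG and 0.349 and 0.131 in FCP (log2 fold change -6.92 ± 0.44, adjusted p = 1.62e-15). KCNH1, a voltage-gated potassium channel, stood at 47.4 and 49.6 CPM in FBG and 0.83 and 0.917 in FCP. In Mock, TNNT2, GFRA1 and KCNH1 had means of 31.9, 41.6 and 44.4 CPM, and in aC 0.804, 0.233 and 1.46. The reads of PLCE1-AS1 cannot be told from those of the gene on the opposite strand, since counting used no strand option.

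The promoters of genes at either end of the comparison are shown so that 2 genes that rose and 2 that fell can be read side by side. The 250 bases before the start that the RefSeq promoter table for GRCh38.p14 uses are written 5′ to 3′ on the gene's strand. For LAMA3 that start is an internal one, so its window lies inside the gene's annotated span; the other 3 windows end where the annotated gene begins. Capitals mark matches, on either strand, to 4 motifs: CACCTG, the E-box variant recognised by ZEB and SNAI factors; TGANTCA, the AP-1 site; GGAATG, the TEAD site; and AACCGGTT, the grainyhead site. CACCTG and TGANTCA can overlap, as they do once in LAMA3. KRT5 (minus strand, chr12:52520395-52520644) and LAMA3 (plus strand, chr18:23872770-23873019) were higher in FCP, and ITGA11 (minus strand, chr15:68432164-68432413) and FGG (minus strand, chr4:154612657-154612906) lower.
KRT5: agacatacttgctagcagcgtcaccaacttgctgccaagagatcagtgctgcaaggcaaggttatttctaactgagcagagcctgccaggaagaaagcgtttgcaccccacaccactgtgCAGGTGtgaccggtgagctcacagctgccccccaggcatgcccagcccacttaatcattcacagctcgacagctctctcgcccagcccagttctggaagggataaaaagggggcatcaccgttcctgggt
LAMA3: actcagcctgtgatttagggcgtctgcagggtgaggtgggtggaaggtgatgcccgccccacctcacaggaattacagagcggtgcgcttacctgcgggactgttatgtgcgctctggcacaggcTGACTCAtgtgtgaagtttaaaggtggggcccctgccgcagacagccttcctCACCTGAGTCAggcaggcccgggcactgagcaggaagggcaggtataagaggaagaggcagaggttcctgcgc
ITGA11: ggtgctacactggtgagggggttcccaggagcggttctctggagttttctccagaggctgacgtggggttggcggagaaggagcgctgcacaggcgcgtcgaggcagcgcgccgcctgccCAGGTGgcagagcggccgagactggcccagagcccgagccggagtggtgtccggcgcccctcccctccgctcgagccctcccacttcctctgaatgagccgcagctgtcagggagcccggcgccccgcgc
FGG: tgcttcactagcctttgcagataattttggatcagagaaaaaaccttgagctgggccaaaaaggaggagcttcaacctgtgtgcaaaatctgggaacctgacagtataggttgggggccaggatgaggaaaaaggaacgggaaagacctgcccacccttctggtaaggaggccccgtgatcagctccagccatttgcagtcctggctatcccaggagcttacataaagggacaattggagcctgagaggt

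KRT5 and ITGA11 each held 1 match to CACCTG, LAMA3 held 1 to CACCTG and 2 to TGANTCA, and FGG held none of the 4. Of 25 windows read for genes with the largest fold changes, 6 lay before an internal start. Of the 20 genes with the largest rises, 11 had an entry in the table off chromosome 8, and of these 3 held CACCTG (27.3%), 2 held TGANTCA (18.2%) and none held GGAATG or AACCGGTT. Of the 18 with the largest falls, 14 had an entry, and 5 held CACCTG (35.7%), 1 held GGAATG (7.14%) and none held the other motifs. Over 11743 tested genes with an entry, the shares were 16.1% for CACCTG, 4.28% for TGANTCA, 9.61% for GGAATG and 0.111% for AACCGGTT. A match is a description of letters and not a site.

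The cells' own fibrinogen genes were measured with the plasminogen and coagulation list. FGG, the gamma chain gene (chr4:154604136-154612656), had 34.9 and 34.6 CPM in the FBG libraries, 1031 counts in all, and 0 counts in both FCP libraries, so it was at least 530-fold lower in FCP against the floor of 3 counts over the group (edgeR, adjusted p = 5.94e-19). Its mean was 4.57 CPM in Mock and 0.0634 in aC, so that FBG was the group with the highest level. FGB, the beta chain gene, chosen after its values were seen, stood at 3.71 and 4.45 CPM in FBG and 0.0874 and 0.175 in FCP (log2 fold change -4.89 ± 0.60, adjusted p = 6.82e-09), with 1.7 in Mock and 0.148 in aC. FGA, the alpha chain gene, did not pass the filter. These are transcripts of the cells, not the protein added to them.

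Integrins that bind fibrinogen, fibronectin and vitronectin did not move as 1 group. Of 12 listed subunits, 9 passed the filter, 3 rose, 5 fell and 1 was not called, with a median log2 fold change of -0.36 against 0.007 over all tested genes. ITGB3, the β subunit of the classical fibrinogen receptors (chr17:47253827-47313743), fell from 74.3 and 73.4 CPM in FBG to 9.39 and 10.9 in FCP (log2 fold change -2.87 ± 0.074, adjusted p = 1.60e-19). Every FBG library was above every FCP library, and the Mock mean of 26.7 lay between them. Its α partner ITGAV rose, with a level of 107 in both FBG libraries and 160.0 and 165 CPM in FCP (log2 fold change 0.60 ± 0.036, adjusted p = 5.67e-12). ITGB6, which pairs with ITGAV in epithelia and activates latent TGF-beta (chr2:160099671-160200272), rose from 0.876 and 0.269 to 64.2 and 62.2 (log2 fold change 6.77 ± 0.35, adjusted p = 5.12e-09). ITGB6 was at a mean of 0.0667 CPM in Mock and 84.3 in aC.

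The fibronectin receptor subunits ITGA5 and ITGB1, and also ITGB5, moved less. ITGA5 stood at 73.3 and 77.5 CPM in FBG and 99.8 and 92.9 in FCP (log2 fold change 0.35 ± 0.041, adjusted p = 7.36e-08). ITGB1, the β subunit shared by most matrix receptors, stood at 1379.6 and 1369 CPM in FBG and 1043 and 1027 in FCP (log2 fold change -0.41 ± 0.0097, adjusted p = 2.44e-07). ITGB5 stood at 121 and 119.5 CPM in FBG and 95.6 and 92 in FCP (log2 fold change -0.36 ± 0.036, adjusted p = 1.28e-08). All 3 were called, ITGA5 higher and ITGB1 and ITGB5 lower, each by less than 2-fold. ITGB8 and ITGB2 were also called lower, the call of ITGB8 being lost in DESeq2 and without FCP replicate 1 (log2 fold change -0.31), ITGA2B was not called, and the leukocyte and mesenchymal α subunits ITGA8, ITGAM and ITGAX did not pass the filter.

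Laminin and collagen receptor subunits split. Of 9 tested subunits of 10, 5 rose and 3 fell, with a median of 0.58. ITGA6, the laminin receptor subunit of hemidesmosomes, went from 57.9 and 53.3 CPM to 281 and 285 (log2 fold change 2.35 ± 0.038, adjusted p = 9.26e-23). Its partner ITGB4 went from 721 and 727 to 2028 and 2004 (log2 fold change 1.48 ± 0.025, adjusted p = 1.11e-06). ITGA2, a collagen and laminin receptor subunit of epithelia, went from 7.75 and 7.21 to 60 and 59.1 (log2 fold change 2.99 ± 0.10, adjusted p = 2.11e-19). Against these rises, ITGA11 fell as given above and ITGA7, a laminin receptor subunit of muscle, fell from 11.4 and 11.3 to 3.23 and 3.54 (log2 fold change -1.74 ± 0.14, adjusted p = 1.60e-11). ITGA1 was also called lower and ITGA10 was not called.

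Adaptors connect integrins to actin. Of 23 tested focal adhesion genes, 8 rose and 13 fell, with a median of -0.27. The share called was 91.3%, beside 69.2% over all tested genes. FERMT1, the kindlin of epithelia (chromosome 20), rose from 7.62 and 8.49 CPM to 86.1 and 87.7 (log2 fold change 3.43 ± 0.096, adjusted p = 4.21e-22). FERMT2, the kindlin of mesenchymal cells, fell from 344 and 333 to 96.2 and 94.9 (log2 fold change -1.82 ± 0.026, adjusted p = 2.36e-24). Among tensins, TNS4 rose as above, and TNS1, TNS2 and TNS3 were called lower with log2 fold changes of -0.93, -0.65 and -0.92. The actin crosslinker FLNA was called lower at -0.36. TNS1, TNS2, TNS3 and FLNA were chosen after their values were seen.

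E-cadherin and P-cadherin rose and N-cadherin fell. Of 11 tested cadherins and catenins, 7 rose and 2 fell. CDH1, E-cadherin (chr16:68737292-68835537), stood at 8.15 and 9.84 CPM in FBG and 249.6 and 250.1 in FCP (log2 fold change 4.79 ± 0.089, adjusted p = 1.16e-24). CDH3, P-cadherin (chr16:68645310-68733771), stood at 8.63 and 8.42 CPM in FBG and 222 and 211 in FCP (log2 fold change 4.67 ± 0.092, adjusted p = 1.20e-26). CDH2, N-cadherin (chromosome 18 long arm, chr18:27932879-28177130), stood at 169.8 and 162 CPM in FBG and 39.7 and 38.4 in FCP (log2 fold change -2.09 ± 0.04, adjusted p = 8.89e-23). The 2 FCP libraries were above both FBG libraries for CDH1 and CDH3 and below both for CDH2. Such a lack of overlap was seen in 85% of all tested genes. CDH6, a cadherin of kidney and neural crest, fell from 47.4 and 46.5 to 4.24 and 3.75 (log2 fold change -3.55 ± 0.11, adjusted p = 5.18e-19). CDH5, the endothelial cadherin, had 0 counts in FBG and 41 counts in FCP, which is at least 8.86-fold higher against the floor.

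Desmosome genes were mostly higher. Of 9 tested, 7 rose and 2 fell, and the median was 1.27. DSP, desmoplakin (chromosome 6), which anchors keratin filaments at the plaque, went from 189 and 201 CPM to 1091 and 1090.3 (log2 fold change 2.48 ± 0.023, adjusted p = 1.09e-23). PKP3, a plakophilin of the plaque, went from 14.4 and 14.7 to 118 and 115 (log2 fold change 3.00 ± 0.072, adjusted p = 4.77e-23). PERP (chromosome 6) went from 76.4 and 72.8 to 189 and 189.9 (log2 fold change 1.34 ± 0.034, adjusted p = 3.75e-20), and DSG2 (chromosome 18 long arm), a desmosomal cadherin, from 129 and 135 to 271 and 275 (log2 fold change 1.05 ± 0.027, adjusted p = 1.66e-19). PKP2 and DSC3 (chromosome 18) were the members called lower.

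Genes of the hemidesmosome, the junction that fixes basal epithelia to the basement membrane, rose with genes of its laminin ligand. All 10 listed genes were tested, 9 rose, and CD151, a tetraspanin, was not called, though it was called higher under library size scaling, at 0.13, and with GC and length trends removed, at 0.23; the median was 2.91. LAMB3 (chr1:209614870-209652425) stood at 2.7 and 2.36 CPM in FBG and 432 and 435 in FCP (log2 fold change 7.42 ± 0.17, adjusted p = 4.60e-30). LAMA3 (chromosome 18 long arm, chr18:23689453-23955066) stood at 15.4 and 10.2 CPM in FBG and 270.1 and 274 in FCP (log2 fold change 4.41 ± 0.12, adjusted p = 3.09e-06). Both laminin chain genes were higher in each FCP library than in either FBG library, as were 42.5% of all tested genes. COL7A1, the collagen of anchoring fibrils, went from 34.3 and 32.2 to 367 and 366 (log2 fold change 3.46 ± 0.047, adjusted p = 1.04e-27). The plakins DST (chromosome 6) and PLEC had log2 fold changes of 1.68 ± 0.031 and 1.48 ± 0.0067.

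**Figure D3:**
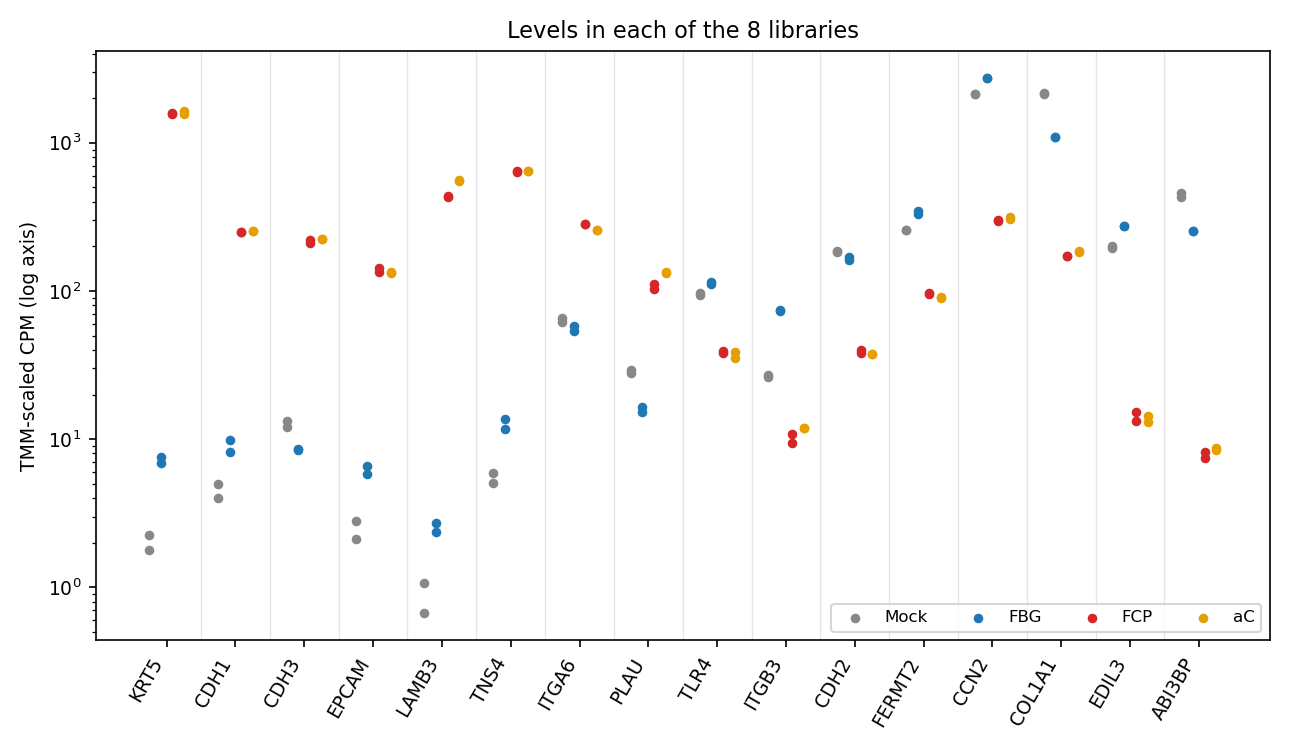
Level of 16 adhesion, receptor and matrix genes in each of the 8 libraries (TMM-scaled CPM, log axis), with 2 points per group (Mock grey, FBG blue, FCP red, aC orange). From KRT5 to PLAU the FCP points lie above the FBG points, and from TLR4 to ABI3BP below them.

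Of the tight junction list, 7 of 15 genes were tested; 6 rose and 1 fell, with 4 set aside for copies and 4 under the filter. MARVELD3, a tricellulin relative of the tight junction, went from 0.539 and 0.404 CPM to 21.5 and 20.9 (log2 fold change 5.47 ± 0.39, adjusted p = 2.16e-18). F11R, the junctional adhesion molecule A gene, went from 49.9 and 54 to 154 and 149.5 (log2 fold change 1.55 ± 0.041, adjusted p = 8.79e-20). CLDN11 was the member called lower, at -0.53 ± 0.037.

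Keratins are the intermediate filaments of epithelia. Of 14 listed, 13 passed the filter and 13 rose, with a median of 4.13. Among those that rose, 6 were under 1 CPM in FBG and may have entered the test through their level in FCP and aC. The count and the median therefore describe the keratins that passed and support nothing. KRT17 stood at 356 and 346 CPM in FBG and 989 and 1006 in FCP (log2 fold change 1.51 ± 0.017, adjusted p = 8.84e-26). KRT19, a simple and basal epithelial keratin, stood at 8.02 and 8.02 CPM in FBG and 214 and 218 in FCP (log2 fold change 4.75 ± 0.095, adjusted p = 3.71e-10). The simple keratins KRT7, KRT8 and KRT18, which the line already expressed in FBG, rose by 0.99 ± 0.012, 0.79 ± 0.017 and 0.59 ± 0.018 on the log2 scale. The log2 fold change of KRT5 was 7.76. KRT17 shares sequence with KRT14 and KRT16 and with pseudogenes, so its count is uncertain.

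Of 17 tested transcription and splicing factors of epithelia, of 18 listed, 12 rose and 2 fell, with a median of 2.96. Among those that rose, 9 were under 1 CPM in FBG, some of them at or near 0 counts, and entered the test through their level in FCP and aC, so the count and the median describe the genes that passed and support nothing. ESRP1, the epithelial splicing regulator, stood at 0.674 and 0.741 CPM in FBG and 84.5 and 81.6 in FCP (log2 fold change 6.86 ± 0.32, adjusted p = 4.58e-24). ESRP2 stood at 29.2 and 28.8 CPM in FBG and 77.3 and 75.6 in FCP (log2 fold change 1.40 ± 0.055, adjusted p = 7.11e-17). GRHL2, a grainyhead factor chosen after its values were seen, stood at 0.607 and 0.202 CPM in FBG and 20.6 and 22.7 in FCP (log2 fold change 5.72 ± 0.42, adjusted p = 3.79e-06). The members called lower were KLF5 and NKX2-1, the lung lineage factor, also chosen after its values were seen. NKX2-1 had 11.7 and 10.6 CPM in FBG and 2 counts in FCP, a ratio of counts of 255 (95% counting interval 70.1 to 2120) in favour of FBG; Mock stood at 10.4 CPM and aC at 0.254.

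Among factors of the mesenchymal state, 6 of 10 tested fell and 1 rose. The share called, 70%, was near the 69.2% over all tested genes, of which 35.7% were lower. VIM, vimentin, the intermediate filament of mesenchymal cells, stood at 775 and 788 CPM in FBG and 344 and 344 in FCP (log2 fold change -1.19 ± 0.017, adjusted p = 3.16e-24). ZEB2, a repressor of CDH1, stood at 29.9 and 30.4 CPM in FBG and 8.52 and 9.25 in FCP (log2 fold change -1.76 ± 0.086, adjusted p = 3.07e-14), and ZEB1 was called lower at -0.86 ± 0.08. FOXC2, a forkhead factor, stood at 162 and 161 CPM in FBG and 10.6 and 9.73 in FCP (log2 fold change -3.99 ± 0.07, adjusted p = 3.49e-26). The member that rose was SNAI2, a Snail-family factor also found in basal epithelia, at 2.7 and 2.43 CPM in FBG and 22.8 and 23.6 in FCP (log2 fold change 3.18 ± 0.17, adjusted p = 6.63e-15). ZEB1 was chosen after its values were seen. TWIST1 was called lower, a call lost in DESeq2, after GC and length trends were removed and, at -0.27, without FCP replicate 1, and SNAI1 (chromosome 20), FOXC1 (chromosome 6) and TCF4 (chromosome 18) were not called. SNAI1 was called lower without FBG replicate 2, at -0.53, and TCF4 with GC and length trends removed, at -0.23.

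Most tested matrix genes were lower, with exceptions. Of 20 tested matrix genes, 15 fell and 3 rose, with a median of -1.34. Their summed level, much of it FN1, moved little, from 14300 CPM in both FBG libraries to 13300 in both FCP libraries. COL1A1, a type I collagen chain (chr17:50184101-50201631), stood at 1087 and 1091 CPM in FBG and 173 and 173 in FCP (log2 fold change -2.66 ± 0.018, adjusted p = 3.00e-30). BGN, biglycan, stood at 417 and 418 CPM in FBG and 73.4 and 79.2 in FCP (log2 fold change -2.45 ± 0.028, adjusted p = 2.94e-26), and COL5A2 went from 274 and 270.3 to 64.6 and 66.9. POSTN, periostin, a ligand of αv integrins chosen after its values were seen, had 5.26 and 5.66 CPM in FBG and 0 counts in FCP, at least 83.3-fold lower against the floor. The matrix genes that rose were TNC (chromosome 9), FN1 and THBS2 (chromosome 6). TNC, tenascin C, stood at 3.23 and 2.43 CPM in FBG and 202 and 201 in FCP (log2 fold change 6.15 ± 0.16, adjusted p = 2.99e-27). FN1, fibronectin, stood at 7616 and 7667 CPM in FBG and 8975 and 8983 in FCP (log2 fold change 0.23 ± 0.0038, adjusted p = 1.02e-07).

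Of 11 tested fibroblast markers, 7 fell and 3 rose, and the median was -2.40. Their summed level was 1340 CPM in both FBG libraries and 273 in both FCP libraries. Most of this sum was COL1A1, with means of 1089 CPM in FBG and 173 in FCP. COL1A1, COL1A2 and DCN are also on the matrix list. THY1, a surface glycoprotein of fibroblasts, went from 101 and 103 CPM to 52.2 and 52.5 (log2 fold change -0.97 ± 0.039, adjusted p = 7.20e-16). The members that rose were FAP, ACTA2 and PDPN.

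Targets of YAP and of serum response factor, which read out spreading and actin tension, fell almost throughout the list. Of 19 tested, 17 fell, ACTA2 rose and F3, tissue factor, was not called. CCN2, connective tissue growth factor (chromosome 6, chr6:131948176-131951372), stood at 2754 and 2740.2 CPM in FBG and 301 and 298 in FCP (log2 fold change -3.20 ± 0.013, adjusted p = 3.72e-32). CCN1 stood at 1701 and 1693 CPM in FBG and 463 and 457 in FCP (log2 fold change -1.88 ± 0.012, adjusted p = 6.03e-35). The contractile genes MYL9 (chromosome 20) and TAGLN and the LIM protein gene FHL2 fell, with log2 fold changes of -1.77 ± 0.023, -2.63 ± 0.058 and -2.46 ± 0.035. The median of the list was -0.63, on a background where 35.7% of tested genes were lower. The median of chromosomes 6 and 20, where CCN2 and MYL9 lie, was above 0.

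**Figure D4:**
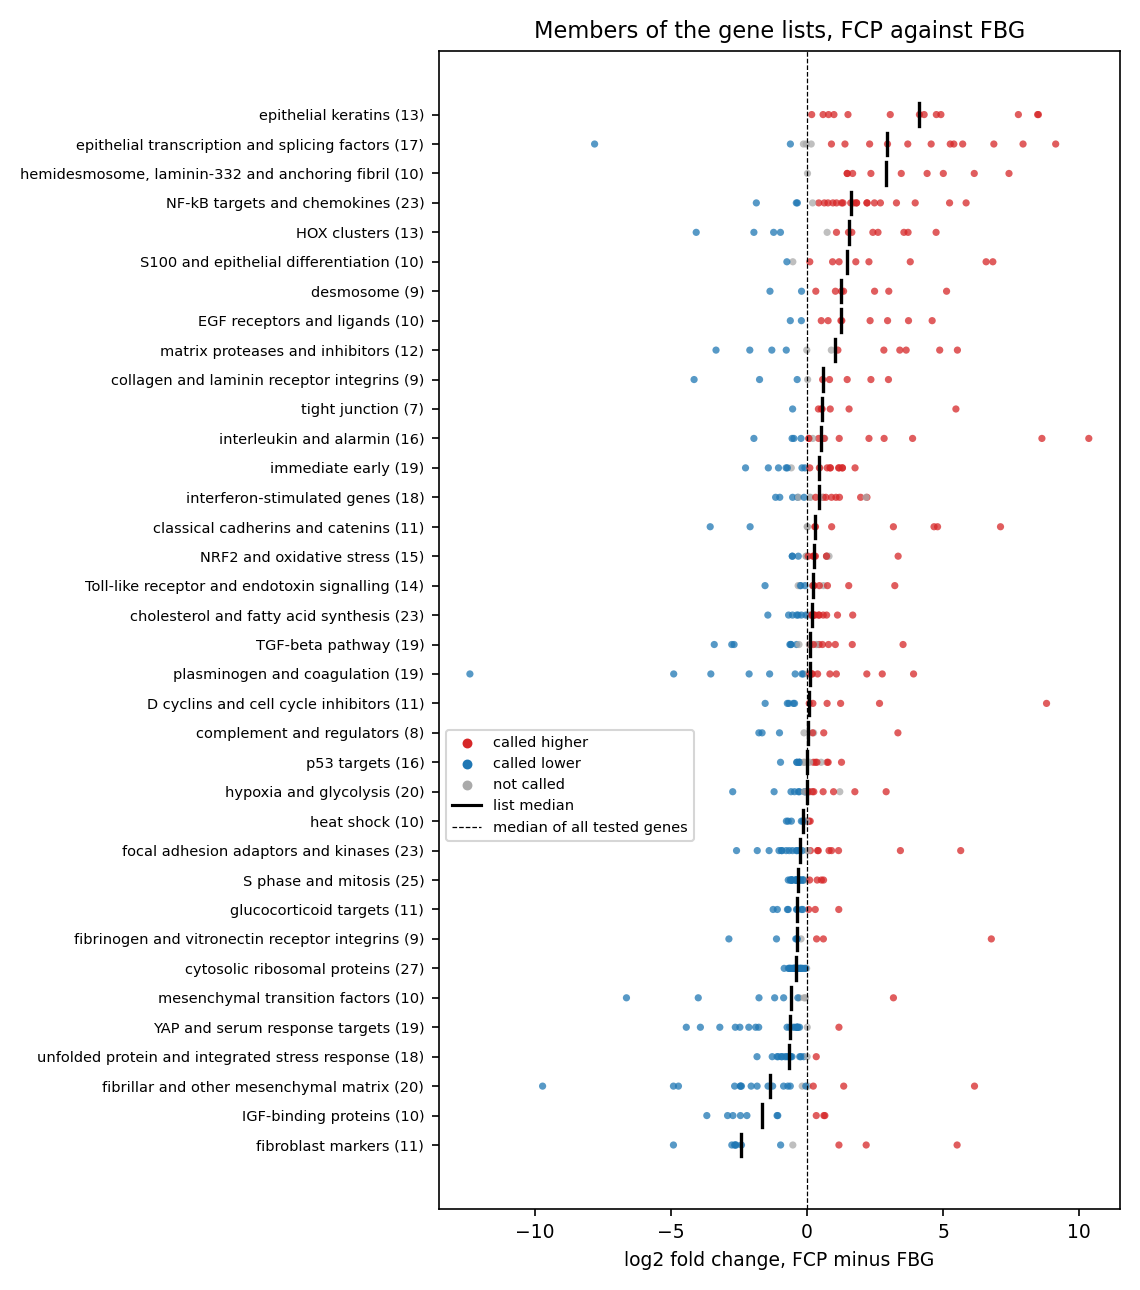
Log2 fold change (FCP minus FBG, horizontal axis) of each tested member of the gene lists (rows, with the number tested), red where called higher, blue where called lower and grey where not called; black ticks are list medians and the dashed line is the median of all tested genes. Keratins, epithelial factors and hemidesmosome genes have medians of 4.13, 2.96 and 2.91, and fibroblast markers one of -2.40. These medians describe the members that passed the filter. Those of keratins, epithelial factors and fibroblast markers moved with the setting.

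The plasminogen and coagulation genes split. Of 19 tested genes of this list, 9 rose and 8 fell, or 89.5% called, beside 69.2% over all tested genes. PLAU, urokinase (chr10:73909164-73917494), stood at 15.2 and 16.4 CPM in FBG and 111 and 104 in FCP (log2 fold change 2.76 ± 0.07, adjusted p = 6.57e-22). Its receptor PLAUR stood at 6.07 and 8.22 CPM in FBG and 15.8 and 14.4 in FCP (log2 fold change 1.08 ± 0.13, adjusted p = 1.31e-06). TGM2 (chromosome 20), a transglutaminase that crosslinks fibrin and fibronectin, fell from 1175 and 1181 to 269 and 271 (log2 fold change -2.12 ± 0.016, adjusted p = 4.43e-29). F2RL1, the protease-activated receptor 2, stood at 16 and 16.5 CPM in FBG and 21.1 and 21.5 in FCP (log2 fold change 0.39 ± 0.15, adjusted p = 0.0396), and this call was lost when any 1 library of either group was left out, at log2 fold changes from 0.36 to 0.41, and with the replicate block. TFPI2, an inhibitor of plasmin and tissue factor, fell from 101 and 94.7 to 38.1 and 37.5.

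The membrane protease matriptase and its inhibitors rose. ST14, matriptase, stood at 2.63 and 2.83 CPM in FBG and 128 and 124 in FCP (log2 fold change 5.52 ± 0.16, adjusted p = 4.12e-25). Its inhibitor SPINT1 stood at 7.21 and 6.74 CPM in FBG and 86 and 88.3 in FCP (log2 fold change 3.64 ± 0.10). The related inhibitor SPINT2 stood at 28 and 28.2 CPM in FBG and 298 and 298 in FCP (log2 fold change 3.41 ± 0.051). Both inhibitors and their target were above the FBG range in each FCP library, as were 42.5% of all tested genes. TIMP2, an inhibitor of matrix metalloproteinases, fell from 616 and 609.9 to 252 and 249.8 (log2 fold change -1.29 ± 0.018, adjusted p = 1.83e-24). Over the list, 6 of 12 tested rose and 4 fell.

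Toll-like receptors moved in opposite directions. Of 14 tested genes of this pathway, 6 rose, 4 fell and 4 were not called, so 71.4% were called, near the 69.2% over all tested genes. These counts depend on the setting: 7 rose and 1 fell under library size scaling, 5 and 2 in DESeq2 and without FBG replicate 1, 3 and 2 without FBG replicate 2, and 3 and 3 without FCP replicate 2. TLR4, the endotoxin receptor (chromosome 9, chr9:117704403-117724735), stood at 111 and 115 CPM in FBG and 39.5 and 38.1 in FCP (log2 fold change -1.54 ± 0.046, adjusted p = 2.81e-18), with means of 95.6 in Mock and 37.1 in aC. TLR4 was thus lower in FCP on a chromosome with a median of 0.52. TLR2, the receptor of bacterial lipoproteins, stood at 0.809 and 0.674 CPM in FBG and 7.56 and 6.42 in FCP (log2 fold change 3.23 ± 0.32, adjusted p = 1.44e-12). CD14, the coreceptor, stood at 1.68 and 1.21 CPM in FBG and 2.1 and 2.79 in FCP (log2 fold change 0.75 ± 0.27, adjusted p = 0.0192), a call lost in DESeq2, and lost at 0.53 both without FBG replicate 2 and without FCP replicate 2. LY96, whose product TLR4 needs to sense endotoxin, did not pass the filter, and the adaptor MYD88 stood at 35.3 and 30.7 CPM in FBG and 28 and 27.3 in FCP (log2 fold change -0.25 ± 0.068, adjusted p = 0.00227), a call lost at -0.15 under library size scaling and without FBG replicate 1, and at -0.14 after GC and length trends were removed.

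NF-kB targets were mostly higher in FCP. Of 23 tested, 19 rose and 3 fell, with a median of 1.61, or 1.32 with CSF2, which had 0 counts in FBG, at its bound. Among those that rose, 6 were under 1 CPM in FBG and may have entered the test through their level in FCP and aC. The count and the median therefore describe the genes that passed and support nothing. TNFAIP3 (chromosome 6), the feedback inhibitor A20, chosen after its values were seen, stood at 4.58 and 5.39 CPM in FBG and 75.9 and 81.1 in FCP (log2 fold change 3.97 ± 0.12, adjusted p = 2.42e-14). NFKB2, an NF-kB subunit gene, stood at 21.7 and 20.3 CPM in FBG and 73.9 and 73.9 in FCP (log2 fold change 1.82 ± 0.063, adjusted p = 3.20e-19), and NFKBIA, the inhibitor IκBα, at 33.6 and 34 CPM in FBG and 103 and 103 in FCP (log2 fold change 1.61 ± 0.05, adjusted p = 7.43e-20). ICAM1, the adhesion molecule that also binds fibrinogen, stood at 204 and 205 CPM in FBG and 318 and 319 in FCP (log2 fold change 0.64 ± 0.022, adjusted p = 4.17e-17).

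The neutrophil chemokine CXCL8 did not follow. It stood at 9.77 and 9.5 CPM in FBG and 11.3 and 11 in FCP (log2 fold change 0.21 ± 0.11, adjusted p = 0.0708), was not called, and was called higher under other settings, at log2 fold changes of 0.23 with DESeq2 size factors, 0.32 with library size only and 0.37 with GC and length trends removed. CSF3, the granulocyte growth factor, chosen after its values were seen, stood at 0.27 and 0.741 CPM in FBG and 29.7 and 29 in FCP (log2 fold change 5.84 ± 0.37, adjusted p = 3.01e-10). CCL20, a chemokine for dendritic cells and lymphocytes, stood at 0.0674 and 0.404 CPM in FBG and 2.45 and 2.27 in FCP (log2 fold change 3.29 ± 0.86, adjusted p = 0.0234), a call lost without FBG replicate 1, at 2.52, and without FCP replicate 1 or 2, at 3.23 and 3.34. The list members called lower were RELA, CXCL1 and CXCL6. CXCL1 stood at 0.01 on the log2 scale after GC and length trends were removed, and the call of CXCL6 was lost without FCP replicate 1, at -1.19.

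Both interleukin-1 genes went from the floor to clear expression. IL1B (chr2:112829751-112836779) had 1 count over both FBG libraries and 51.8 and 53.1 CPM in FCP, a ratio of counts of 1560 (95% counting interval 279 to 61500). IL1A (chr2:112773925-112784493) stood at 0.135 and 0.135 CPM in FBG and 53.9 and 57.8 in FCP (log2 fold change 8.63 ± 0.72, adjusted p = 1.27e-23). Their means in Mock were 0.133 and 0.133 CPM, and in aC 88.8 and 81.1. IL6 stood at 0.607 and 1.21 CPM in FBG and 13.5 and 13.5 in FCP (log2 fold change 3.88 ± 0.28, adjusted p = 1.03e-11), and IL4R, the receptor chain for the type 2 cytokines, at 14.6 and 14.4 CPM in FBG and 105 and 102 in FCP (log2 fold change 2.83 ± 0.073, adjusted p = 2.03e-22). Against these, IL18, an inflammasome cytokine, fell from 77.1 and 83.3 to 21.9 and 19.6 (log2 fold change -1.95 ± 0.058, adjusted p = 3.45e-18). Over the list, 10 of 16 tested rose and 4 fell. Among those that rose, 4 were under 1 CPM in FBG and may have entered the test through their level in FCP and aC. This count therefore describes the genes that passed.

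The epithelial alarmins TSLP, IL33 and IL25 were low or under the filter. TSLP stood at 0.809 and 0.269 CPM in FBG and 0.83 and 0.873 in FCP (log2 fold change 0.65 ± 0.48, adjusted p = 0.239) and was not called, but was called without FBG replicate 1, at a log2 fold change of 1.63. IL33 and IL25 did not pass the filter. The share of tested interferon-stimulated genes called was 72.2%, near the 69.2% over all tested genes. Of 18 tested interferon-stimulated genes, 8 rose and 5 fell, but 6 rose and 1 fell in DESeq2, 9 and 2 under library size scaling, and 7 and 3 without FCP replicate 1 or 2. RIGI (chromosome 9), a sensor of viral RNA, stood at 9.77 and 8.08 CPM in FBG and 36.8 and 33.3 in FCP (log2 fold change 1.97 ± 0.096, adjusted p = 2.91e-15), and IFI6 fell from 13.1 and 10.2 CPM in FBG to 5.68 and 6.02 in FCP (adjusted p = 2.89e-07). IRF1 rose from 31.5 and 30.4 to 59.1 and 56.6 (log2 fold change 0.90 ± 0.055, adjusted p = 1.85e-13).

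**Figure D5:**
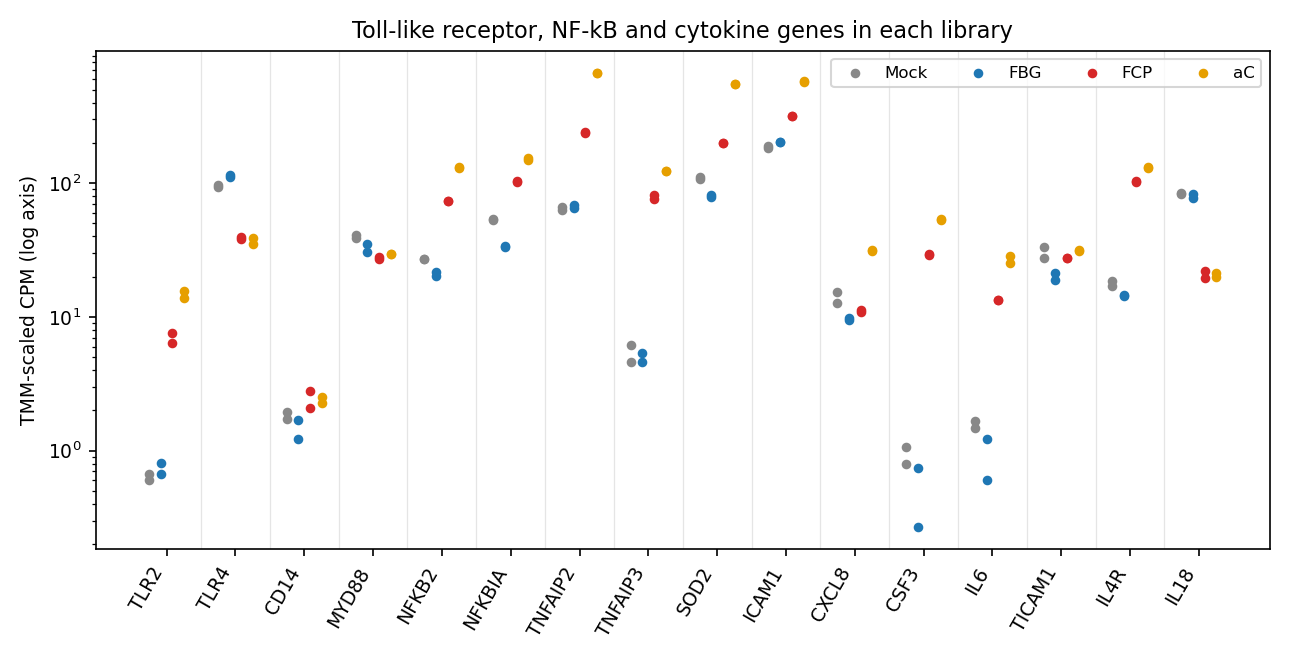
Level of 16 Toll-like receptor, NF-kB and cytokine genes in each of the 8 libraries (TMM-scaled CPM, log axis), with 2 points per group (Mock grey, FBG blue, FCP red, aC orange). TLR4, MYD88 and IL18 are lower in FCP than in FBG, and TNFAIP3 rises from 4.58 and 5.39 in FBG to 75.9 and 81.1 in FCP.

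Ligands of the EGF receptor rose with the receptor. Of 10 tested, 8 rose and 2 fell. TGFA, a membrane-bound EGF receptor ligand, stood at 2.97 and 3.03 CPM in FBG and 72.8 and 72.6 in FCP (log2 fold change 4.60 ± 0.15, adjusted p = 4.50e-23). AREG, amphiregulin, stood at 3.91 and 3.64 CPM in FBG and 28 and 30.8 in FCP (log2 fold change 2.96 ± 0.14), and EREG, epiregulin, at 3.71 and 3.91 CPM in FBG and 18.6 and 19.5 in FCP (log2 fold change 2.32 ± 0.14). EGFR itself stood at 314 and 329 CPM in FBG and 462 and 464 in FCP (log2 fold change 0.53 ± 0.021, adjusted p = 1.46e-15). ERBB2 and the feedback inhibitor ERRFI1 were called lower.

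The TGF-beta pathway counted 8 higher and 7 lower of 19 tested, or 78.9% called. Over all tested genes 69.2% were called, 33.5% higher and 35.7% lower. TGFB2 fell from 42.9 and 42 CPM to 6.25 and 6.29 (log2 fold change -2.76 ± 0.095, adjusted p = 4.17e-17), and BMP4, a related morphogen, from 54.7 and 52.6 to 4.89 and 5.24 (log2 fold change -3.40 ± 0.10, adjusted p = 1.86e-16). TGFBI, a secreted integrin ligand induced by TGF-beta, rose from 179 and 183 to 574 and 573 (log2 fold change 1.66 ± 0.022, adjusted p = 2.41e-25). SMAD3 rose from 53.3 and 54.4 to 111 and 110.4 (log2 fold change 1.04 ± 0.041, adjusted p = 1.71e-17).

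IGF-binding proteins fell. Of 10 tested genes of that list, 7 fell, among them the IGFBP genes tested, and the receptors IGF1R and IGF2R (chromosome 6) and STC1 rose. The call of STC1 was lost in DESeq2, with the replicate block, in a fit of the FBG and FCP libraries only, and without FBG replicate 2, FCP replicate 1 or FCP replicate 2, at 0.30, 0.47 and 0.77. IGFBP4 stood at 1706 and 1722 CPM in FBG and 227 and 228 in FCP (log2 fold change -2.91 ± 0.021, adjusted p = 3.14e-10). IGFBP3 stood at 890.1 and 895 CPM in FBG and 162 and 166 in FCP (log2 fold change -2.44 ± 0.019, adjusted p = 5.15e-29). STC2, a secreted regulator of IGF-binding protein cleavage, fell from 749 and 757 to 115 and 114 (log2 fold change -2.72 ± 0.022, adjusted p = 5.48e-29). For each of the 3, the Mock means of 3075, 1211 and 841 CPM were above those of FCP.

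Most cell cycle genes fell. Of 25 listed genes of S phase and mitosis, all tested, 20 fell and 4 rose, with a median of -0.34; with GC and length trends removed, 15 fell and 5 rose, with a median of -0.17. MCM5, a subunit of the replicative helicase, stood at 301 and 311 CPM in FBG and 194 and 186 in FCP (log2 fold change -0.69 ± 0.024, adjusted p = 6.62e-17). RRM2, a subunit of ribonucleotide reductase, stood at 737 and 736 CPM in FBG and 500.1 and 508 in FCP (log2 fold change -0.55 ± 0.016, adjusted p = 1.51e-18). MKI67, the proliferation antigen, went the other way, at 1078 and 1063 CPM in FBG and 1397 and 1379 in FCP (log2 fold change 0.37 ± 0.014, adjusted p = 2.59e-16). Cyclins and their inhibitors counted 6 higher and 5 lower of 11. Beside CCND2, CCND1 rose from 162 and 160.2 to 377 and 381 (log2 fold change 1.24 ± 0.024, adjusted p = 1.56e-22) and CDK6, their kinase, from 19.4 and 20.1 to 122 and 128 (log2 fold change 2.66 ± 0.063, adjusted p = 1.63e-22).

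Targets of p53 counted 6 higher and 6 lower of 16, in a line immortalised with a viral antigen that binds p53. The share called was 75%, beside 69.2% over all tested genes. CDKN1A (chromosome 6) stood at 113 and 113 CPM in FBG and 186 and 192 in FCP (log2 fold change 0.74 ± 0.029, adjusted p = 2.17e-16). FAS, a death receptor, stood at 8.29 and 7.14 CPM in FBG and 18.1 and 19.1 in FCP (log2 fold change 1.27 ± 0.12, adjusted p = 4.71e-09). Immediate early genes counted 10 higher and 7 lower of 19, or 89.5% called, beside the same 69.2%. On the log2 scale, MYC and the AP-1 subunit gene FOSL1 rose by 1.16 ± 0.03 and 1.30 ± 0.038. The MAP kinase phosphatase genes DUSP6 and DUSP1 fell, at -1.42 ± 0.03 and -0.72 ± 0.044. Glucocorticoid targets counted 3 higher and 8 lower of 11, or 100% called, with TSC22D3 at -1.24 ± 0.072.

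S100 proteins and epithelial differentiation genes were mostly higher where measured. Of 18 listed, 10 passed the filter, 8 rose and 1 fell, or 90% called, beside 69.2% over all tested genes. Among those that rose, 2 were under 1 CPM in FBG and may have entered the test through their level in FCP and aC. The median of the list was 1.49, and 1.08 over 14 genes with no filter. S100A2, a calcium-binding protein of basal epithelia, stood at 3.98 and 4.58 CPM in FBG and 414 and 404 in FCP (log2 fold change 6.58 ± 0.13, adjusted p = 5.08e-30). SFN, the 14-3-3 protein of epithelia, stood at 89.8 and 90.1 CPM in FBG and 312 and 312 in FCP (log2 fold change 1.79 ± 0.03, adjusted p = 5.56e-24). The cornified envelope genes IVL and SPRR1A, SPRR1B, SPRR2A and SPRR3 did not pass the filter. In complement, C3 stood at 71.3 and 68 CPM in FBG and 707 and 702 in FCP (log2 fold change 3.34 ± 0.033, adjusted p = 5.08e-30), and CD55, a membrane regulator that protects cells from it, at 48.5 and 49.7 CPM in FBG and 15.8 and 15.5 in FCP (log2 fold change -1.65 ± 0.066, adjusted p = 3.81e-16). The complement list counted 3 higher and 3 lower of 8, or 75% called, beside 69.2% over all tested genes.

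Genes of the unfolded protein and integrated stress response fell. Of 18 tested, 16 fell, TRIB3 (chromosome 20) rose and ASNS was not called, with a median of -0.66. CALR, calreticulin, a chaperone of the endoplasmic reticulum, stood at 1446 and 1439 CPM in FBG and 822 and 824 in FCP (log2 fold change -0.81 ± 0.01, adjusted p = 2.64e-30). PHGDH, which makes serine, stood at 451 and 463 CPM in FBG and 186 and 192 in FCP (log2 fold change -1.27 ± 0.021, adjusted p = 7.50e-23). Cytosolic heat shock genes counted 2 higher and 6 lower of 10, a split that became 4 and 4 under library size scaling and 5 and 4 with GC and length trends removed. HSPA8, the constitutive chaperone, stood at 4211 and 4199.9 CPM in FBG and 2824 and 2837 in FCP (log2 fold change -0.57 ± 0.0057, adjusted p = 1.45e-07). Cytosolic ribosomal protein genes were called lower in 26 of 27, with a median of -0.40, and RPS6 (chromosome 9) was the member not called. With GC and length trends removed, 18 were called lower and 6 higher, with a median of -0.13, and RPS6 was called higher, at 0.31; under library size scaling 23 were lower and 2 higher. Among the list RPS4X fell by 0.65 on the log2 scale, and many of these genes have processed pseudogenes, which makes their counts uncertain.

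The medians of the metabolic lists lay near 0. Cholesterol and fatty acid synthesis counted 14 higher and 7 lower of 23, with a median of 0.19. FASN, fatty acid synthase, stood at 1602 and 1623 CPM in FBG and 2673 and 2649 in FCP (log2 fold change 0.72 ± 0.012, adjusted p = 8.75e-07), and its Mock mean of 5712 CPM was above both. Hypoxia and glycolysis counted 8 higher and 8 lower of 20, or 80% called, beside 69.2% over all tested genes. NDRG1 stood at 2.91 ± 0.10 and ADM, adrenomedullin, at -2.73 ± 0.088 on the log2 scale. NRF2 and oxidative stress genes counted 8 higher and 3 lower of 15, or 73.3% called, beside 69.2% over all tested genes. NQO1 stood at -0.32 ± 0.024 and AKR1C3 at 3.35 ± 0.61 on the log2 scale. The AKR1C genes share sequence, so the count of AKR1C3 is uncertain.

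By difference in mean CPM, the genes that gained most were PLEC, SLC7A5, KRT5, KRT7, FN1, ITGB4, COX1, AHNAK, FASN and DSP. Those that lost most were EFEMP1, CCN2, ACTB, IGFBP4, HSPA8, CCN1, PEG10, PPME1, TUBA1B and COL1A1. EFEMP1, a fibulin of the extracellular matrix (chr2:55865967-55923782), stood at 4002 and 3978 CPM in FBG and 500.2 and 489 in FCP (log2 fold change -3.01 ± 0.012, adjusted p = 4.66e-09). SLC7A5, a transporter of large neutral amino acids, stood at 936 and 952 CPM in FBG and 2717 and 2730.4 in FCP (log2 fold change 1.53 ± 0.0095, adjusted p = 2.03e-09). ACTB, β-actin, often used as a reference gene, stood at 6256 and 6281 CPM in FBG and 4554 and 4546 in FCP (log2 fold change -0.46 ± 0.0046, adjusted p = 6.11e-09). ACTB was thus lower in FCP, as it was under each scaling tried, from -0.46 to -0.35 on the log2 scale, and COX1 is encoded in the mitochondrial genome, which took 4.24% to 4.27% of counts in FBG and 4.45% to 4.47% in FCP.

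Genes of other cell types were sparse. Of 12 leukocyte markers, 6 had 0 counts in FBG and 8 in FCP, CD3E and CD163 among them in both groups, and their summed level was 19.4 to 21.3 CPM in FBG and 11.8 to 12.1 in FCP. The marker that passed the filter was CD68, a lysosomal protein also made by other cells, at 21.1 and 18.9 CPM in FBG and 11.8 and 11.8 in FCP (log2 fold change -0.76 ± 0.095, adjusted p = 2.67e-07). Of 7 endothelial markers, 3 passed and CDH5 was called; their summed level was 1.15 CPM in both FBG libraries and 2.8 to 3.19 in FCP. PECAM1 stood at 0.472 and 0.269 CPM in FBG and 0.655 and 0.96 in FCP and KDR at 0.202 and 0.337 CPM in FBG and 0.655 and 0.611 in FCP, and neither was called; KDR was called under library size scaling and with the stricter filter, at log2 fold changes of 1.32 and 1.21, and PECAM1 at 1.12 with genes with copies left out before the fit. Of 12 ciliated and secretory airway markers, 4 passed, 2 rose and 2 fell; SCGB1A1, SCGB3A1 and BPIFA1 had 0 counts in both groups, and the summed level of 851 to 867 CPM in FBG and 939 to 940 in FCP was nearly all TUBB4B (chromosome 9), a tubulin that other cells share. CCDC39, a ciliary assembly protein, rose from 1.42 and 2.16 to 3.93 and 4.15 (log2 fold change 1.17 ± 0.24, adjusted p = 2.00e-04), and DNAH5, an outer arm dynein, fell from 5.86 and 7.34 to 2.05 and 2.14 (log2 fold change -1.65 ± 0.22, adjusted p = 8.40e-07). AQP5, a water channel of airway and gland, had 2.43 and 3.23 CPM in FBG and 3 counts in FCP, a ratio of counts of 43.2 (95% counting interval 14.3 to 214). Of 8 neural and melanocytic markers, 6 passed, 3 rose and 1 fell, with a median of 0.36. TUBB3, a neuronal tubulin, rose from 20.4 and 19.7 to 34.3 and 34.2 (log2 fold change 0.77 ± 0.069, adjusted p = 2.60e-10). SOX10 had 1 count in FBG and 20 in FCP, and GFAP 4 and 29; both were called higher, and both calls were lost without FBG replicate 2 or FCP replicate 1, that of GFAP also without FCP replicate 2. NES, nestin, fell from 4.79 and 5.32 to 0.612 and 0.873 (log2 fold change -2.76 ± 0.27, adjusted p = 1.30e-09). The summed level of the neural and melanocytic list was 35 to 37 CPM in FBG and 44.6 to 46.6 in FCP. The part of these markers in the differences above was not tested.

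HOX genes record position along the body axis. Of 33 listed, 13 passed the filter, 8 rose and 4 fell. Of those that rose, 7 were under 1 CPM in FBG and entered the test through their level in FCP and aC. With no filter, 29 were tested, 11 rose and 5 fell, and the median went from 1.53 to 0.76. The 4 that fell were the HOXB genes that passed, and the 8 that rose were of the HOXA and HOXD clusters; a difference between clusters was not tested. HOXA3 stood at 0.607 and 0.337 CPM in FBG and 5.77 and 5.5 in FCP (log2 fold change 3.56 ± 0.40, adjusted p = 1.35e-10). HOXB4 stood at 10.6 and 9.84 CPM in FBG and 2.88 and 2.4 in FCP (log2 fold change -1.95 ± 0.19, adjusted p = 5.11e-09), and HOXB3 went from 18.6 and 16.8 to 7.16 and 7.99 (log2 fold change -1.22 ± 0.12, adjusted p = 5.41e-09). Mock stood at 0.167 CPM for HOXA3 and 8.13 for HOXB4, and aC at 5.92 and 2.64. HOX genes of a cluster overlap and have antisense transcripts, so these counts are uncertain.

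Of the 25 genes on the list for adhesion and the fibrinogen response, 16 rose, 7 fell and CXCL8 and TSLP were not called. CD44, the hyaluronan receptor, stood at 106 and 106 CPM in FBG and 173 and 179.9 in FCP (log2 fold change 0.74 ± 0.03, adjusted p = 4.75e-16).

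The neighbouring comparisons place FCP against FBG among the others; they share libraries with it, so their counts are given only side by side. Called genes numbered 8055 of 15321 for FBG against Mock, 11638 for FCP against Mock, 10834 for aC against FBG and 1433 for aC against FCP. At 2-fold or more, FBG against Mock had 819 higher and 229 lower, and aC against FCP had 39 higher in aC and 8 lower. For ITGB3 the mean levels in Mock, FBG, FCP and aC were 26.7, 73.9, 10.1 and 11.8 CPM, and for TNFAIP2 65, 67.4, 239 and 662. ITGB3 was thus higher in FBG than in the other 3 groups, and TNFAIP2 higher in aC than in FCP.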

How the data were processed

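RNA was sequenced from 8 libraries of BEAS-2B cells in 4 groups of 2. The deposited files hold unnormalized counts per gene. Per the file headers, the authors ran featureCounts 1.6.0 on read pairs, counting exons and adding them up by gene ID, and set neither a strand nor a multi-mapping option. The submitters' processing notes give featureCounts 1.6.2 and also list Trimmomatic 0.39, HISAT2 2.2.1 and SAMtools 1.9, with no role or order, and the build GRCh38.p14, in which coordinates are given. Reads that map to several places go uncounted under these settings, so genes with copies, close relatives or pseudogenes are uncertain, as are genes that overlap an antisense partner. Entries set aside for a copy took 1.17% to 1.22% of counts.

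From the counts, edgeR 4.0.16 (with limma 3.58.1, in R 4.3.3) was fitted over all 8 libraries with TMM scaling, filterByExpr by group and robust quasi-likelihood, on 16307 genes, 986 of them with copies, with Benjamini-Hochberg adjustment over all of them and 4 residual degrees of freedom; a gene was called at an adjusted p under 0.05. The common biological coefficient of variation was 0.102. Standard errors were derived from the fold change and its F statistic; they lay below the counting error for 23.7% of genes, and the larger of the 2 is printed. The 2 libraries of a group differed by 1.34 (FBG) and 1.30 (FCP) times the counting variance and were kept as 2 samples. Tested on simulated data for FCP against FBG over 15967 genes, the fit called 70%, 80%, 100% and 100% of genes changed 1.5, 2, 4 and 8-fold, and 3.31% of its calls were false. The simulation changed 50 genes per fold, all well counted, left every other gene equal between FCP and FBG, and took its spread from the fit. In the data 69.2% of genes were called, many of them near 0 in a group, so these shares do not carry over to the calls. DESeq2 1.42.0 and the other alternatives are in the closing section. GC content came from GENCODE transcripts for 13517 genes (88.2% of those tested).

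Named genes were, among genes with no copy: the 10 highest and 10 lowest called fold changes with both groups at 5 CPM or more; up to 10 each way under 1 CPM in the lower group and at least 20 CPM in the higher; the 10 largest differences in mean CPM each way; up to 4 members with the smallest p of each of 41 lists (665 genes); and the list of adhesion and fibrinogen response genes. Members of lists named to complete a count, and those said so in the text, were chosen after their values were seen. Some genes that this rule names are not reported here. The comparison, its members and the lists were chosen with earlier results of these data known.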

Additional observations from a re-analysis of the deposited data

How the results depend on the processing

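Called genes numbered 10597 (5125 higher and 5472 lower in FCP). In the other settings tried they numbered 8797 with DESeq2, 10537 with DESeq2 size factors in edgeR, 10642 with library size only, 10765 with no filter, 10591 with at least 10 counts in every library of either group, 10985 with genes with copies left out before the fit, 10394 in a fit of the FBG and FCP libraries only and 9684 with GC and length trends removed. Leaving out each library in turn gave 9405 to 9759 calls; the lone library of that group is then assumed to vary like the others. With library size only, the median log2 fold change was 0.11 and 57.6% of calls were higher, 6130 against 4512, where TMM gave 48.4%; with GC and length trends removed, 4232 were higher and 5452 lower.

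With the replicate number as a block, 10521 genes were called, 5073 higher and 5448 lower, and 9638 with the block and GC and length trends removed. The labels do not say that equal numbers share a culture or day. The difference between replicates 1 and 2 correlated at 0.015 across 15321 genes between FCP and FBG. The libraries of a group differed by only 1.34 (FBG) and 1.30 (FCP) times the counting variance. This correlation therefore cannot show whether equal numbers were paired. Among named genes, the block ended the calls of F2RL1 and STC1.

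ASNS, CD151, ITGA10, SNAI1, TCF4, FOXC1 and RPS6, which were not called, and CXCL1, which was, changed sign in some settings. Over the fits that left out 1 library, ASNS ranged from -0.06 to 0.07, CD151 from -0.02 to 0.06, ITGA10 from -0.31 to 0.45, SNAI1 from -0.53 to 0.01 and TCF4 from -0.16 to 0.05. With library size only, TCF4 stood at 0.05 and FOXC1 at 0. With GC and length trends removed, CXCL1 stood at 0.01 and ITGA10 at -0.02, with or without the block. RPS6 stood at 0.01 with DESeq2, with its size factors in edgeR and with no filter, at 0.1 with library size only, at 0.31 with GC and length trends removed, and at 0 with copies left out, with FBG and FCP libraries only and without FCP replicate 2. The cause of these changes was not tested. The lower depth of FBG limits genes near 0.101 CPM, and 2 libraries per group limit the spread that could be seen. Counts and medians of other lists moved too. Under library size scaling, 11 hypoxia genes were higher and 6 lower, 5 matrix genes higher in place of 3, and the medians of the focal adhesion, coagulation and cholesterol lists were -0.16, 0.21 and 0.30. With GC and length trends removed, 6 TGF-beta genes were higher and 9 lower, and the medians of the interleukin and immediate early lists were 0.33 and 0.30. The interleukin median was 1.07 without FBG replicate 1, and the immediate early median 0.29 without FCP replicate 1. Hypoxia genes called higher numbered 5 without FBG replicate 1 and 4 without FCP replicate 1, and D cyclin genes 4 without FBG replicate 1 or FCP replicate 2. With no filter, the median of the matrix protease list was 0.01; with at least 10 counts in every library, that of the mesenchymal factors was -0.34. The keratin median was 3.19 without FBG replicate 1, 4.74 without FBG replicate 2 and 3.61 with no filter. That of the epithelial factors was 2.65 with no filter and 3.71 in a fit of the FBG and FCP libraries only. For fibroblast markers it was -1.80 with no filter and -1.88 without FBG replicate 2. The median of the TGF-beta, complement, D cyclin, p53 and neural lists changed sign in at least 1 setting.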
